A study of Mus musculus with 19 samples.

Results

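Retinoic acid, the hormone-like acid that cells make from vitamin A, was followed here through 9 genes of its synthesis, binding, sensing and clearance: Rdh10, Dhrs3, Aldh1a1, Aldh1a2, Aldh1a3, Crabp1, Crabp2, Rarb and Cyp26b1. They were taken by symbol from the 27998 genes listed for every library, and all 9 had unique molecular identifiers (UMIs, 1 per captured transcript) in the stromal-like cells of each group of libraries. The genes were chosen by their measured levels, as a pathway whose levels were seen to differ between lineages, stromal subsets, days and peptide treatment, so those same levels are given as a description. The genes went into the fits over all genes, and no p-value of theirs is given. The set holds more than synthesis and binding, since Rarb encodes a receptor and Cyp26b1 and Dhrs3 encode enzymes that lower the amount of retinoic acid or of its precursor.

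The libraries were droplet-based 3′ single-cell RNA libraries (10x Genomics, v2 chemistry) of cells digested from the Achilles tenotomy site of male mice in a model of heterotopic ossification (HO), the growth of bone in soft tissue. Mice received a partial-thickness dorsal scald burn over 30% of the body surface together with transection of the Achilles tendon. There were 4 libraries at day 0, 3 at day 3, 4 at day 7, 4 at day 21 and 4 from mice given p7N3, a CD47-activating peptide, at 10 mg/kg daily for 3 days before and 3 days after injury. The labels list the burn and tenotomy for all 19 libraries, day 0 included, while the study's text describes day 0 tissue as taken before injury. The labels name C57 and LysmCre/Tgfb1fx/fx mice for the series and assign neither strain to a library. In the latter strain the Lysm promoter, active in myeloid cells, drives the Cre that deletes Tgfb1, so myeloid deletion of Tgfb1 cannot be told apart from the other differences between libraries. Day 7 libraries carry no vehicle in the labels, the text names PBS as the control for the peptide, and the label of p7N3 replicate 4 gives no harvest day. The study's text describes the single-cell experiments of a time point as repeated to gauge variation between mice, and the labels name no animal for a library, so p-values measure the spread between these libraries, which may be technical in part.

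Retinol from the blood is oxidised to retinaldehyde, chiefly by RDH10, and retinaldehyde is oxidised irreversibly to retinoic acid by the aldehyde dehydrogenases ALDH1A1, ALDH1A2 and ALDH1A3, while DHRS3 reduces retinaldehyde back to retinol. CRABP1 and CRABP2 bind retinoic acid in the cytoplasm, CRABP2 delivering it to nuclear receptors such as RARB, and CYP26 enzymes oxidise and inactivate it. Retinoic acid signalling must fall for mesenchymal condensations to become cartilage, and agonists of the receptor RARG block endochondral HO, which is why this pathway is of interest at an ossifying injury.

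The 9 genes lie on 8 autosomes of the mouse build GRCm38. The first oxidation step and its reversal are encoded by Rdh10 (ENSMUSG00000025921) at chr1:16105774-16133734 on the plus strand and Dhrs3 (ENSMUSG00000066026) at chr4:144892827-144928209 on the plus strand. The retinaldehyde dehydrogenase genes are Aldh1a1 (ENSMUSG00000053279) at chr19:20492715-20643465, plus strand, Aldh1a2 (ENSMUSG00000013584) at chr9:71215789-71296243, plus strand, and Aldh1a3 (ENSMUSG00000015134) at chr7:66390890-66427517, minus strand. Of the binding proteins, Crabp1 (ENSMUSG00000032291) is at chr9:54764748-54773110 and Crabp2 (ENSMUSG00000004885) at chr3:87948666-87953376, both on the plus strand. Rarb (ENSMUSG00000017491) spans chr14:16430839-16819156 and Cyp26b1 (ENSMUSG00000063415) chr6:84571414-84593908, both on the minus strand.

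Retinoic acid receptors bind direct repeats of a half-site, and promoters of 300 bases (250 before and 50 after an annotated start) were searched on both strands for exact pairs of half-sites, each of which could read AGGTCA, could read GGGTCA, could read AGTTCA or could read GGTTCA, spaced by 1, 2 or 5 bases. Promoters from RefSeq (GRCm38.p6) were at hand for 6 of the 9 genes, 9 promoters in all; Rdh10, Crabp2 and Aldh1a3 were not in that table. A repeat was found in 1 of the 9, at a Rarb start, with a spacing of 5. Of all 32851 promoters of that length, 32 (0.0974%) held a repeat with a spacing of 5. A spacing of 1 was found in 73 (0.222%) and a spacing of 2 in 88 (0.268%). Among 46 other retinoid genes with promoters (66 promoters), 2 genes held any repeat and 1, Cyp26a1, held a repeat with a spacing of 5. These promoters are shown because they carry, in these letters, the element through which retinoic acid is known to act on its own target genes, with the repeat in capitals. The Rarb window is chr14:16575427-16575726 on the minus strand, with the repeat at bases 198 to 214, and the Cyp26a1 window is chr19:37697558-37697857 on the plus strand, with the repeat on the opposite strand at bases 219 to 235.
Rarb: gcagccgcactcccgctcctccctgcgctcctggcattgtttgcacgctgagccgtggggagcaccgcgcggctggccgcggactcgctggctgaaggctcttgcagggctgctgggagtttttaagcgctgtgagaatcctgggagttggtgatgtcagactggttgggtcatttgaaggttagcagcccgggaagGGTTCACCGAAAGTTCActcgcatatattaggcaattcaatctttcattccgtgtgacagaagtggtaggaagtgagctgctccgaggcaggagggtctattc
Cyp26a1: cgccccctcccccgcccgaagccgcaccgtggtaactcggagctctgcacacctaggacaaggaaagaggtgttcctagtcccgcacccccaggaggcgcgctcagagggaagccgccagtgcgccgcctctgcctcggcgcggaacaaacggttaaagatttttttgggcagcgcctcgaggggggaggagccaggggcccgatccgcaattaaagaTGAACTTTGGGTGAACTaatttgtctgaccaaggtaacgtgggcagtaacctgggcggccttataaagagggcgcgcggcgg
A match of letters is not evidence of binding, and nothing was read from its absence in the other windows.

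After filtering, 39541 cells remained, 571 to 3668 per library, with 3019467 to 39870492 UMIs per library. Day 0 libraries were the shallowest, with 3019467 to 5383855 UMIs and a median of 3414 to 4693 UMIs per cell, against medians of 10288 to 11186 on day 3. Pairs of libraries shared 0 to 22 cell barcodes, with a median of 4. Cells were clustered and named from marker genes, and levels are counts per 1000000 (CPM), the UMIs of a gene scaled to 1000000 UMIs of the named class in a library (summed over cells, only for libraries with at least 10 cells of the class). The stromal-like class held 1147 cells at day 0, 814 at day 3, 4584 at day 7, 3756 with p7N3 and 1614 at day 21, and different clusters made it up. A cluster led by Myoc, Gsn and Clec3b held 90.0% of the class at day 0, a cluster led by Prg4, Wisp2 and Cxcl14 held 91.2% at day 3, and a cluster led by Pi16, Sfrp4 and Col14a1 held 36.1% at day 7, 25.3% with p7N3 and 69.8% at day 21. Summed markers of monocytes and macrophages (11 of 11 with a UMI in every group) came to 72.1 to 186 CPM in stromal-like cells at day 0, 1539 to 1714 on day 3, 390 to 624 on day 7, 461 to 532 with p7N3 and 132 to 238 on day 21. Summed granulocyte markers came to 4.37 to 20.8 CPM on day 0 and 1423 to 2411 on day 3, 7 of 7 with a UMI at both times.

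With all libraries pooled, which weights the deeper days 7 and p7N3 most, stromal-like cells held 92.5% of all Crabp1 UMIs, 88.9% of Aldh1a2, 78.9% of Aldh1a3, 77.4% of Rdh10, 68.2% of Aldh1a1, 58.1% of Cyp26b1, 56.8% of Crabp2 and 54.1% of Rarb UMIs. Dhrs3 had 41.7% of its UMIs in monocyte/macrophage-like cells and 26.2% in stromal-like cells. Class size enters these shares. Over all genes, stromal-like cells held 189628209 UMIs, monocyte/macrophage-like cells 106743531 and tenocyte-like cells 54743318. The shares differed by day. At day 0 endothelial-like cells held 61.2% ± 15.5 (SD, n = 4 libraries) of Cyp26b1 and 52.8% of Dhrs3 UMIs, and stromal-like cells held 35.4% ± 15.9 of Cyp26b1 and 35.7% ± 4.25 of Rarb UMIs. At day 21 tenocyte-like cells held 80.5% of Crabp2 and 54.8% of Cyp26b1 UMIs. Averaged over libraries, Aldh1a2 stood at 33.4 ± 29.3 CPM (SD, n = 19) in stromal-like cells, and no other lineage passed 5.6 CPM.

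Crabp1 had the same stromal bias, at 83.0 ± 108 CPM (n = 19) in stromal-like cells against 19.3 ± 22.7 (n = 12) in Schwann cell-like cells, the next lineage. Crabp2 was highest in tenocyte-like cells, at 238 ± 187 CPM (n = 15), then in stromal-like cells, at 114 ± 73.1 (n = 19), and these neighbours overlapped in their spread. For Rdh10 stromal-like cells (42.3 ± 29.3 CPM, n = 19) and mural-like cells (36.2 ± 29.1, n = 19), the pericytes and smooth muscle of vessels, were not separated by their spread.

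Several genes had no single home. Aldh1a1 was at 30.0 ± 17.9 CPM (n = 10) in muscle-like, 22.8 ± 21.9 (n = 19) in stromal-like, 21.2 ± 51.9 (n = 12) in Schwann cell-like and 19.7 ± 18.1 (n = 15) in tenocyte-like cells, levels that overlapped throughout. Rarb was low everywhere, at 8.5 ± 12.6 CPM in tenocyte-like, 8.0 ± 7.2 in Schwann cell-like, 7.7 ± 5.6 in muscle-like and 7.1 ± 3.2 in mural-like cells. Stromal-like cells came next, at 3.5 ± 1.9 CPM, and all cells together held 984 Rarb UMIs. Cyp26b1 averaged 31.1 CPM in both stromal-like (SD 13.5) and endothelial-like cells (SD 40.7), 25.8 ± 31.1 in tenocyte-like and 21.5 ± 20.1 in mural-like cells. Dhrs3 ran from 167 ± 41.3 CPM in monocyte/macrophage-like cells through 112 ± 30.8 in tenocyte-like to 89.5 ± 82.0 in endothelial-like cells. The large SDs of the endothelial and tenocyte values come with levels that moved by day, as given further on.

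Free RNA in the droplets or doublets can add to such values, and their part was not tested. With every cell thinned to 1500 UMIs, Crabp2 had a UMI in 12.4% of stromal-like cells (median 13579 UMIs before thinning) and in 0.73% of T/NK lymphocyte-like cells (median 4147), which are not known to use it. Likewise, Rdh10 had one in 5.90% against 0.55%, Crabp1 in 6.63% against 0.18%, and Aldh1a2 in 3.87% against 0 of the lymphocyte-like cells kept. Dhrs3 had a UMI in 18.4% of thinned monocyte/macrophage-like cells, 17.1% of endothelial-like and 2.20% of T/NK lymphocyte-like cells.

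**Figure D1:**
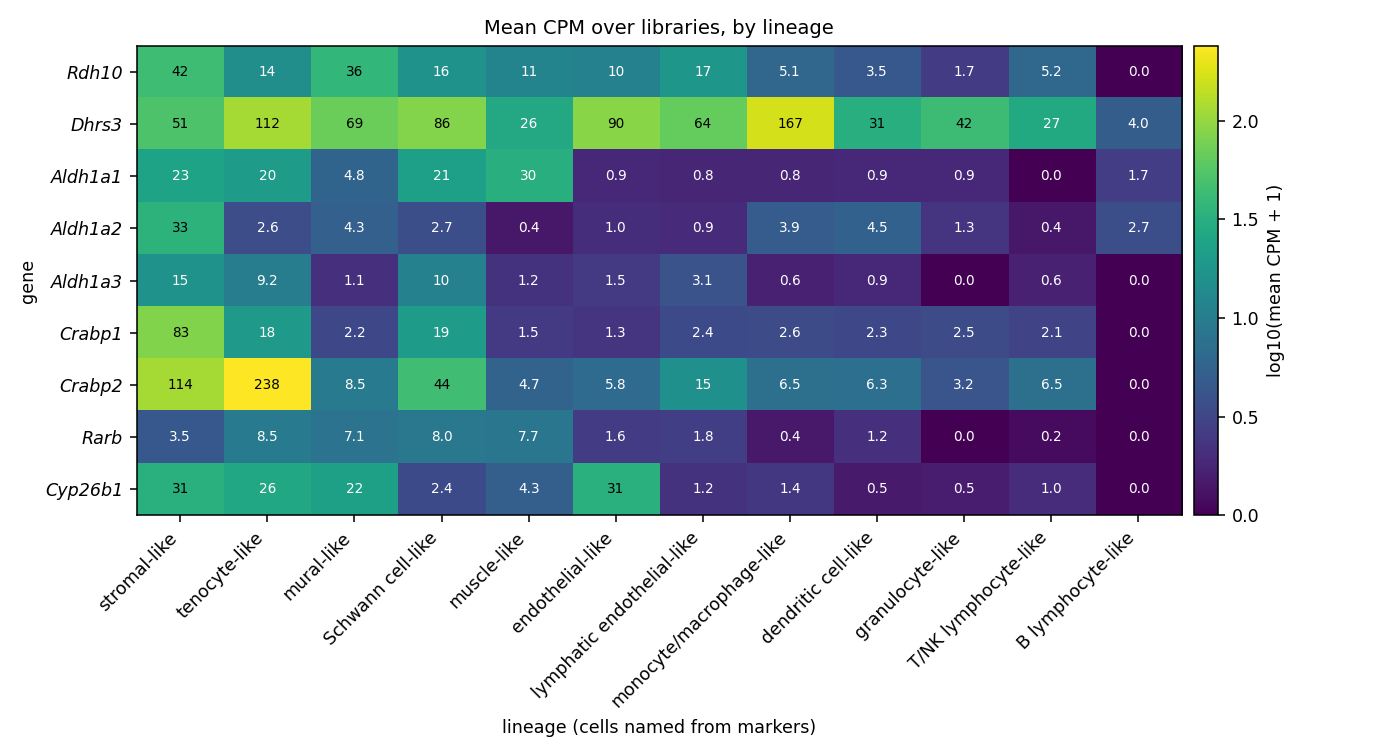
Mean CPM over libraries of each gene (rows) in each marker-named lineage (columns), on a colour scale with the value in each cell of the grid. Aldh1a2 and Crabp1 stand out in stromal-like cells (33.4 and 83.0 CPM), Crabp2 in tenocyte-like and stromal-like cells (238 and 114 CPM), and Dhrs3 in monocyte/macrophage-like cells (167 CPM).

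In stromal-like cells the synthesis enzymes did not move together after injury. Rdh10, the first oxidation step, was at 10.4, 18.2, 17.5 and 11.3 CPM in the day 0 libraries, at 55.5, 26.8 and 84.0 at day 3, at 48.6, 33.4, 29.7 and 37.3 at day 7, and at 28.8, 17.8, 21.0 and 29.5 at day 21. All libraries of days 3 and 7 lay above all of day 0, and day 21 overlapped with day 0. The mean was 2.60 times that of day 0 at day 7 (37.3 ± 8.21 against 14.3 ± 4.06 CPM) and 1.69 times at day 21 (24.3 ± 5.80).

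Aldh1a1, a dehydrogenase of broad tissue distribution, went the other way. It ranged from 51.5 to 68.4 CPM on day 0, 11.3 to 17.8 on day 3, 5.31 to 11 on day 7 and 16.7 to 26.5 on day 21, and no later library reached a day 0 value. In the class as a whole, the mean fell from 61.7 ± 7.80 to 7.88 ± 2.37 CPM at day 7, a log2 ratio of -2.97. It stood at 22.3 ± 4.55 at day 21, where all libraries were above all of day 7. Levels within subsets are given further on.

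Aldh1a2, the main retinaldehyde dehydrogenase of embryonic mesoderm, had its high point at day 3. It was at 25.5, 24.6, 30.6 and 38.3 CPM at day 0, at 90.4, 128 and 53.3 at day 3, at 22.6, 7.51, 10.4 and 14.4 at day 7, and at 29.1, 30.0, 26.3 and 26.1 at day 21. In the class as a whole, day 7 lay below both day 0 and day 21 in every library. Days 0 and 21 overlapped (29.8 ± 6.27 and 27.9 ± 1.97 CPM). Aldh1a3, a further dehydrogenase of the same step, ranged from 12.8 to 33.7 CPM on day 0, 5.12 to 8.16 on day 3, 7.87 to 23.8 on day 7 and 13.5 to 26.7 on day 21. Its day 3 libraries were below all day 0 libraries, while day 7 and day 21 overlapped with day 0, and day 7 held 1 library at 23.8 CPM and the others at 7.87 to 9.06. Dhrs3, the reverse reaction, showed no separation of days in these cells, with group means of 42.1 ± 3.47 to 61.4 ± 16.6 CPM over days 0 to 21.

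The binding proteins had the widest range. Crabp2 was at 7.56, 7.78, 7.64 and 6.76 CPM at day 0, at 127, 88.3 and 116 at day 3, at 97.2, 126, 106 and 130 at day 7, and at 113, 96.8, 116 and 145 at day 21. The day 0 means rest on 6 to 16 UMIs per library, and each later group was 14.8 to 15.8 times the day 0 mean of 7.44 ± 0.46 CPM. Days 3, 7 and 21 overlapped fully, at means of 110 ± 19.8, 115 ± 16.0 and 118 ± 20.1 CPM. This held for stromal-like cells alone. With tenocyte-like cells added, the chondrocyte-like ones among them, day 21 (254 to 375 CPM) lay above day 7 (101 to 141 CPM). Crabp1 was at 3.31, 2.59, 0 and 0.751 CPM at day 0, from 7, 2, 0 and 1 UMIs. It was at 36.6, 14.9 and 101 CPM at day 3, at 68.6, 441, 63.2 and 182 at day 7, and at 5.99, 8.89, 34.0 and 78.1 at day 21. Each later group lay above day 0, but libraries of the same day differed by several-fold, with a mean of 189 ± 177 CPM at day 7 and 31.8 ± 33.4 at day 21.

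The receptor and the clearing enzyme were lower or overlapping after injury. Rarb, itself a known target of retinoic acid, ranged from 4.25 to 8.26 CPM on day 0 (6 to 11 UMIs per library), 3.20 to 4.99 on day 3, 1.86 to 3.04 on day 7 and 1.02 to 3.00 on day 21. In the class as a whole, days 7 and 21 lay below day 0 in every library. Cyp26b1 was at 31.2, 64.8, 45.3 and 23.3 CPM at day 0, at 34.7, 29.0 and 14.8 at day 3, at 26.4, 20.6, 21.4 and 11.2 at day 7, and at 44.3, 35.5, 22 and 34.3 at day 21. Its groups overlapped between all of these days.

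**Figure D2:**
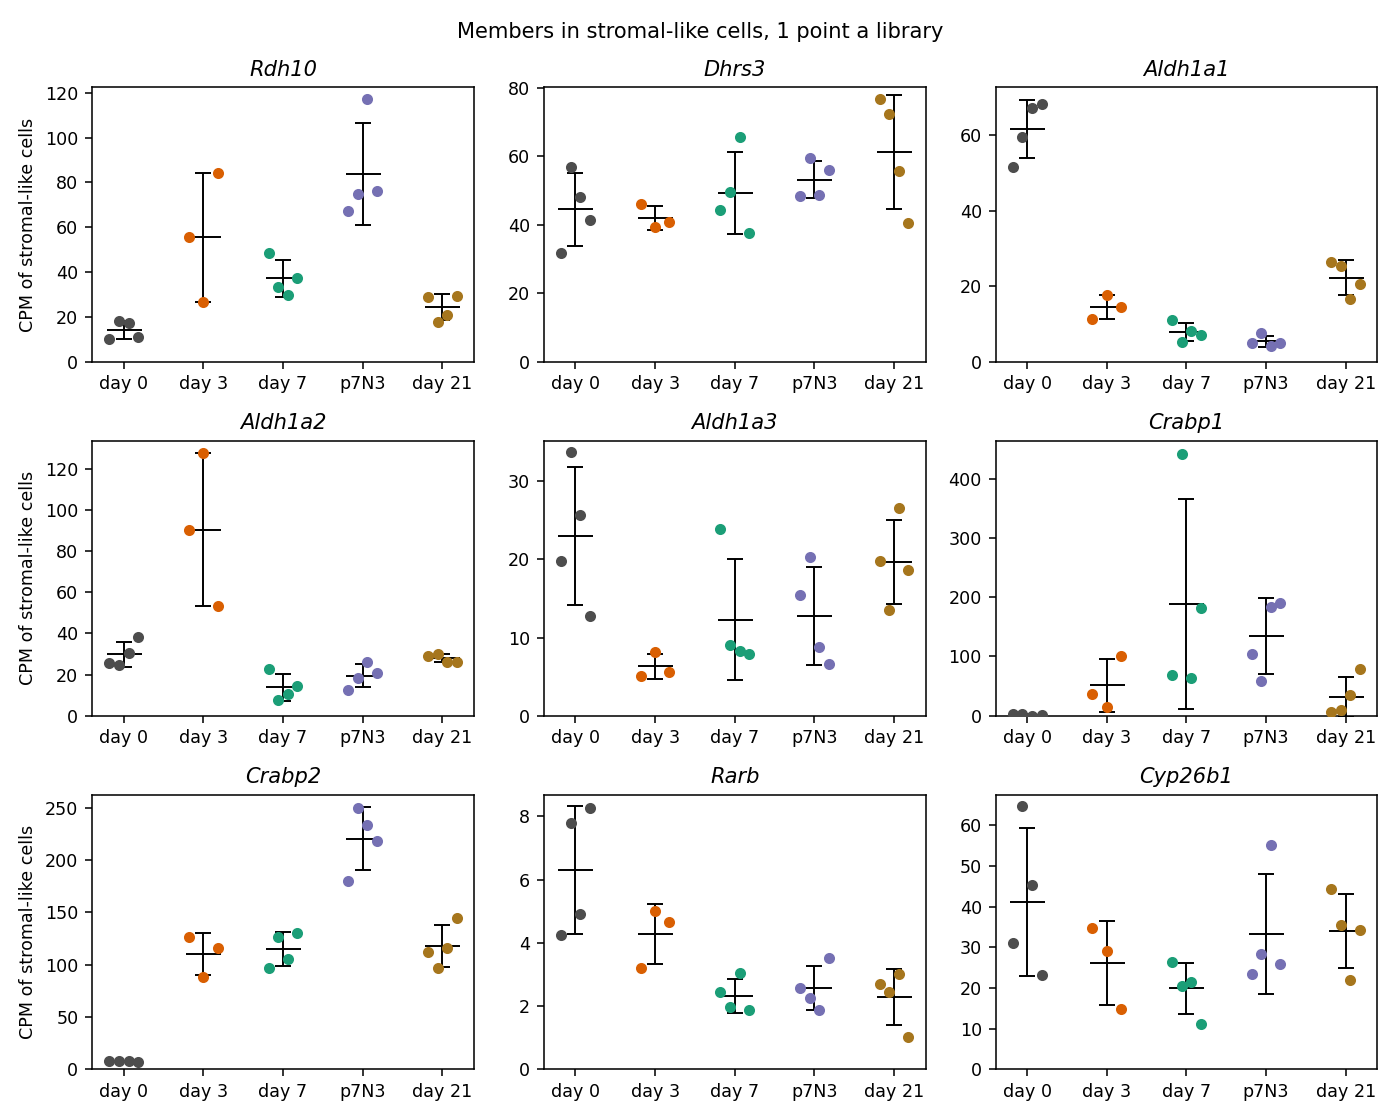
CPM of each of the 9 genes in stromal-like cells, 1 point per library, by group (days 0, 3, 7 and 21, and p7N3), with the mean and SD in black and every axis from 0. Crabp2 steps from 6.76 to 7.78 CPM on day 0 to 88.3 CPM or more in every later library, Aldh1a1 falls from 51.5 to 68.4 CPM to at most 26.5, and p7N3 libraries lie above day 7 for Rdh10 and Crabp2.

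Counted over the 9 genes, 6 did not overlap between day 3 and day 0 (4 higher and 2 lower at day 3), where 64.1% of all 10393 genes tested did not overlap. For day 7 against day 0 it was 6 of 9 (3 higher and 3 lower), and 48.9% of all genes. Day 21 against day 0 gave 4 of 9 (2 higher and 2 lower, 32.1% of all genes), and day 21 against day 7 gave 3 of 9 (2 higher and 1 lower, 33.7%). Day 7 against day 3 put Aldh1a1, Aldh1a2 and Rarb wholly below (44.2% of genes with at least 10 UMIs). For p7N3 against day 7 it was 2 of 9, Rdh10 and Crabp2, both higher, where 6.06% of all 13323 genes did not overlap. All of these contrasts, p7N3 against day 7 included, helped choose the genes, so nothing was read from the counts.

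Day 3 values came with immune transcripts. Of the 814 stromal-like cells at day 3, 740 lay in a subset whose leading genes included Retnlg, S100a8 and S100a9, genes of granulocytes. They also included Hist1h2ap and Cxcl14. The subset was left unnamed, and its best marker match was inflammatory fibroblast-like, with 8 of 8 markers detected. The class had a median of 34935 UMIs per cell at day 3 against 5173 at day 0. Leaving out the subsets led by immune genes, an alternative chosen after seeing the data, left 2 day 3 libraries with few cells, most of them in a subset led by Prg4. In those libraries Rdh10 was at 8.08 ± 3.26 CPM, below day 0 (log2 ratio -0.83 in place of 1.95), and Aldh1a3 at 51.0 ± 2.44, above day 0 (1.14 in place of -1.87). Crabp2 then stood at 12.7 ± 4.02 CPM and Crabp1 at 3.83 ± 1.92, while Aldh1a2 rose to 552 ± 83.3. The same step left the other days close to their values, with Rdh10 at 37.6 ± 8.49 CPM at day 7 and 84.7 ± 22.2 with p7N3. The part of doublets or of immune RNA in the day 3 values was not tested.

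Mesenchymal cells (14891 cells, the stromal-like and tenocyte-like classes) were clustered again into 21 subsets with the 9 genes left out of the variable genes. The chondrocyte-like subset led by Col2a1 (122 cells) lay within the tenocyte-like class. Subsets are given by their leading genes, and Crabp1, Crabp2 and Aldh1a2 were themselves high in some, so the differences between subsets are descriptive. Crabp2 and Cyp26b1 shared their highest subset, as did Rarb and Dhrs3, and the other genes had theirs elsewhere. Aldh1a2 was highest in the subset led by Prg4, Bglap2 and F13a1 (154 cells), Prg4 being the lubricin gene of joint and tendon linings, at 326 ± 206 CPM over 6 libraries. There it was at 502 and 636 CPM in 2 day 3 libraries, 301 and 87.1 at day 7 and 174 and 257 with p7N3, each library having 11 to 42 of these cells. The next subsets for Aldh1a2 were the one led by Eln, Gdf10 and Sfrp4 (78.2 ± 55.1 CPM, n = 16) and the resting fibroblast-like subset led by Hmcn2 and Myoc (75.7 ± 40.9, n = 14), which overlapped. Within subsets present at both times Aldh1a2 did not separate as lower at day 7. It was at 7.35 to 81.0 CPM on day 0 and 64.4 to 237 on day 7 in the Eln subset, and at 65.3 to 128 and 37.5 to 178 in the Hmcn2 subset. In the subset led by Has1 and Il6 it was at 5.11 to 12.7 and 10.3 to 108 CPM. The day 0 values rested on 1 to 6 UMIs per library in the Eln subset and 1 to 4 in the Has1 subset. Some of them were below the level that 3 counts would give.

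Aldh1a3 was highest in the adventitial fibroblast-like subset led by Pcolce2, Smpd3 and Dact2, at 101 ± 95.8 CPM (n = 10). In that subset it was at 42.7, 57.2, 41.6 and 16.5 CPM in the day 0 libraries and at 290 in the day 7 library and 256 in the p7N3 library with at least 10 such cells, from 41 and 24 UMIs. Aldh1a1 was at 53.7 ± 44.7 CPM (n = 16) in the Eln and Gdf10 subset, 51.1 ± 20.3 (n = 7) in the tenocyte-like subset led by Chodl and Kera, and 39.7 ± 17.8 (n = 10) in the Pcolce2 subset, which overlapped. Within the Pcolce2 subset Aldh1a1 was at 45.2 to 65.7 CPM on day 0 and 13.5 to 51.1 on day 21. In the Has1 and Il6 subset it was at 49.1 to 88.8 CPM on day 0 and 18.1 to 41.1 on day 7, without overlap. Days 0 and 7 overlapped in the Eln subset (51.5 to 180 and 24.9 to 63.0 CPM). They also overlapped in the Hmcn2 subset (39.1 to 69.4 and 18.7 to 59.3 CPM, the latter from 3 or 4 UMIs per library).

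The binding proteins and Rdh10 marked subsets present after injury. Crabp1 was at 703 ± 439 CPM (n = 8) in the inflammatory fibroblast-like subset led by Cxcl5, Il1rl1 and Cxcl3, 285 ± 205 (n = 10) in the activated, contractile subset led by Acta2 and Actg2, and 149 ± 121 (n = 10) in proliferating cells. Its spread between libraries held within a subset, with 1483, 149 and 719 CPM at day 7 in the Cxcl5 subset. Crabp2 was at 566 ± 102 CPM (n = 4) in the tenocyte-like subset led by Col8a1 and Thbs1, found at day 21 (1037 of its 1067 cells), at 705, 487, 495 and 576 CPM in those libraries. The next was the subset led by Gzme and Sfrp1, here Gzme fibroblast-like cells, at 303 ± 103 CPM (n = 9). That subset also had the highest Rdh10, 94.8 ± 48.8 CPM (n = 9), followed with overlap by the Cxcl5 subset at 69.8 ± 41.8 (n = 8).

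For clearance and sensing, Cyp26b1 was at 77.5 ± 33.5 CPM (n = 4) in the Col8a1 subset, at 124, 64.2, 45.9 and 75.4 CPM in the day 21 libraries, and at 55.7 ± 31.5 (n = 9) in the Gzme subset. Rarb reached 22.6 ± 14.0 CPM (n = 7) in the Chodl and Kera subset and 17.9 ± 9.7 (n = 6) in the Prg4 subset, from 25 and 40 UMIs. In the Hmcn2 and Myoc subset it overlapped between day 0 (4.21 to 11.6 CPM) and day 21 (4.07 to 15.1 CPM), from 1 to 8 UMIs per library. In the Has1 and Il6 subset Rarb was at 0 to 4.23 CPM on day 0 and 2.89 to 14.6 on day 7, which overlapped. The day 0 values there were below the 7.66 CPM or more that 3 counts would give. Dhrs3 was at 177 ± 70.2 CPM (n = 7) in the Chodl and Kera subset and 130 ± 59.2 (n = 5) in chondrocyte-like cells led by Col2a1, where 1 day 7 library stood at 221 CPM and the day 21 libraries at 89.7, 67.0, 132 and 140.

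**Figure D3:**
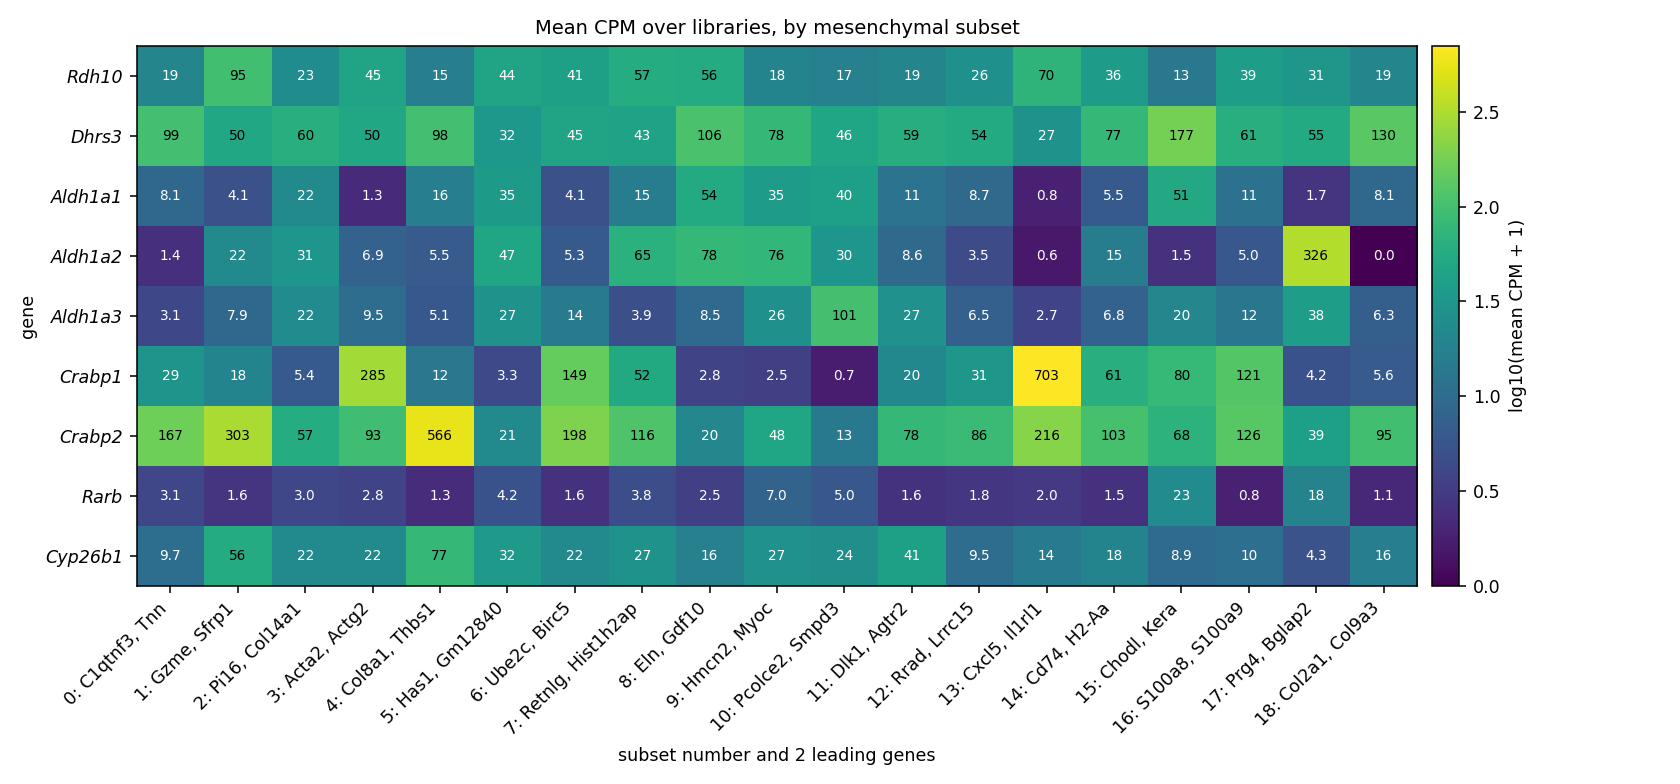
Mean CPM over libraries of each gene (rows) in each mesenchymal subset with values in at least 2 libraries (columns, named by number and leading genes), on a colour scale with the value in each cell of the grid. The highest cell of a row is not in 1 column for all genes, with Aldh1a2 in the Prg4 subset (326 CPM), Crabp1 in the Cxcl5 subset (703 CPM) and both Crabp2 (566 CPM) and Cyp26b1 (77.5 CPM) in the Col8a1 subset.

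The comparison of p7N3 with day 7 asks how mesenchymal cells differ when CD47 is activated around the injury. In stromal-like cells Rdh10 was at 67.0, 74.9, 117 and 76.0 CPM with p7N3, against 48.6, 33.4, 29.7 and 37.3 at day 7. The lowest treated library was above the highest untreated one, and the means were 83.7 ± 22.6 and 37.3 ± 8.21 CPM (n = 4 each), 2.25 times. Crabp2 was at 180, 250, 233 and 218 CPM with p7N3, against 97.2, 126, 106 and 130 at day 7, again with no overlap and a ratio of 1.92 (220 ± 30.0 against 115 ± 16.0 CPM). With cells thinned to 1500 UMIs, Crabp2 had a UMI in 20.1% of p7N3 and 10.3% of day 7 stromal-like cells, and Rdh10 in 8.55% and 5.10%. Unthinned, the shares were 53.9% and 37.8% for Crabp2 and 45.7% and 28.6% for Rdh10, with median depths of 16099 and 13152 UMIs per cell, while in T/NK lymphocyte-like cells Crabp2 had a UMI in 3.85% and 3.45%.

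The other 7 genes overlapped between p7N3 and day 7 in stromal-like cells. Cyp26b1 was at 23.5, 28.3, 55.1 and 25.9 CPM with p7N3 against 11.2 to 26.4 on day 7, with means of 33.2 ± 14.7 and 19.9 ± 6.36. Aldh1a2 was at 12.6 to 25.9 CPM against 7.51 to 22.6, Aldh1a1 at 4.32 to 7.54 against 5.31 to 11, and Aldh1a3 at 6.57 to 20.3 against 7.87 to 23.8. Crabp1, at 103, 57.9, 184 and 191 CPM, overlapped with day 7, its lowest library lying below the day 7 range. Dhrs3 was at 53.2 ± 5.43 against 49.4 ± 12.0 CPM and Rarb at 2.56 ± 0.70 against 2.33 ± 0.54 CPM.

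Within subsets, Rdh10 was higher with p7N3 in the adventitial fibroblast-like subset led by Pi16 and Col14a1, at 36.3, 30.2, 37.8 and 28.8 CPM against 17.6, 9.24, 20.9 and 16.5. In the inflammatory subset led by Has1 and Il6 it was at 58.7, 120, 111 and 71.9 CPM against 44.8, 46.3, 40.3 and 26.4, and in the Eln and Gdf10 subset at 189, 38.5, 321 and 92.8 against 35.5, 20.8, 17.8 and 24.2, without overlap in either. In the Gzme subset, where Rdh10 was highest, it was at 97.5, 116, 184 and 146 CPM against 97.6, 45.6, 45.5 and 41.0, so that 1 day 7 library reached the lowest treated value. In the activated subset led by C1qtnf3 and Tnn, whose Rdh10 was low, values overlapped, at 11.7 to 20.6 against 11.9 to 30.4 CPM.

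Crabp2 was higher with p7N3 in the Gzme subset, at 325, 456, 450 and 380 CPM against 213, 201, 255 and 212. It was also higher in proliferating cells (152, 276, 151 and 252 CPM against 96.5, 129, 120 and 136), in the Has1 subset (27.4, 45.2, 109 and 47.2 against 13, 25.7, 16.8 and 11.7) and in the subset led by Cd74 and H2-Aa (107 to 176 against 43.1 to 105). In the C1qtnf3 subset Crabp2 overlapped, at 148, 254, 163 and 222 CPM against 130, 163, 131 and 113, and it overlapped in the Cxcl5 subset at 94.7 to 268 against 172 to 259. The make-up of the class differed as well, since the Gzme subset held 961 of the p7N3 and 780 of the day 7 stromal-like cells (25.6% and 17%) and the C1qtnf3 subset 118 and 330 (3.14% and 7.20%).

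Other genes of the set separated in single subsets. Dhrs3 was at 56.0 to 67.1 CPM with p7N3 against 38.3 to 53.1 on day 7 in the Gzme subset, and at 76.7 to 118 against 37.5 to 74.2 in 3 against 3 libraries of the Hmcn2 and Myoc subset. Aldh1a2 was at 36.3 to 71.4 against 14.4 to 24.7 CPM in the Pi16 subset, where it did not exceed 18.7 CPM at day 21. Rarb separated in the Gzme subset at 2.01 to 2.96 against 0.461 to 1.89 CPM. These values rested on 8 to 15 UMIs per library with p7N3 and 1 to 7 on day 7. The lowest day 7 value was below the 1.38 CPM that 3 counts would give. In the Hmcn2 subset Rarb had 2, 1 and 4 UMIs with p7N3 (3.83, 8.52 and 17.5 CPM) and none at day 7, where 3 counts would be 18.7 CPM or more in each library, so that no difference was detectable at this depth. Among subsets the share of all genes with at least 10 UMIs that did not overlap with 4 libraries a group was 6.35% for the Gzme subset (3 of the 9 genes), 4.59% for the Pi16 subset (2), 4.12% for the Has1 subset (2), 3.48% for proliferating cells (1), 3.96% for the Eln subset (1), 4.43% for the Cd74 subset (1) and 4.78% for the C1qtnf3 subset (0). No gene of the set separated in the subsets led by Acta2 (3.31%), Dlk1 (3.69%), Rrad (3.13%), S100a8 (2.84%) and Cxcl5 (6.11%), the last with 3 day 7 libraries. It was 11.7% for the Hmcn2 subset (2 of the 9 genes, Rarb included) with 3 libraries a group, and 31.9% for the Prg4 subset (4 of the 9), where 2 stood against 2 and no value was read. Every one of these separations outside the Prg4 subset had the higher level with p7N3. The subsets came from the same libraries, and this contrast helped choose the genes, so nothing was read from the shared direction. Rarb in the Hmcn2 subset had too few UMIs for its direction to be read.

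**Figure D4:**
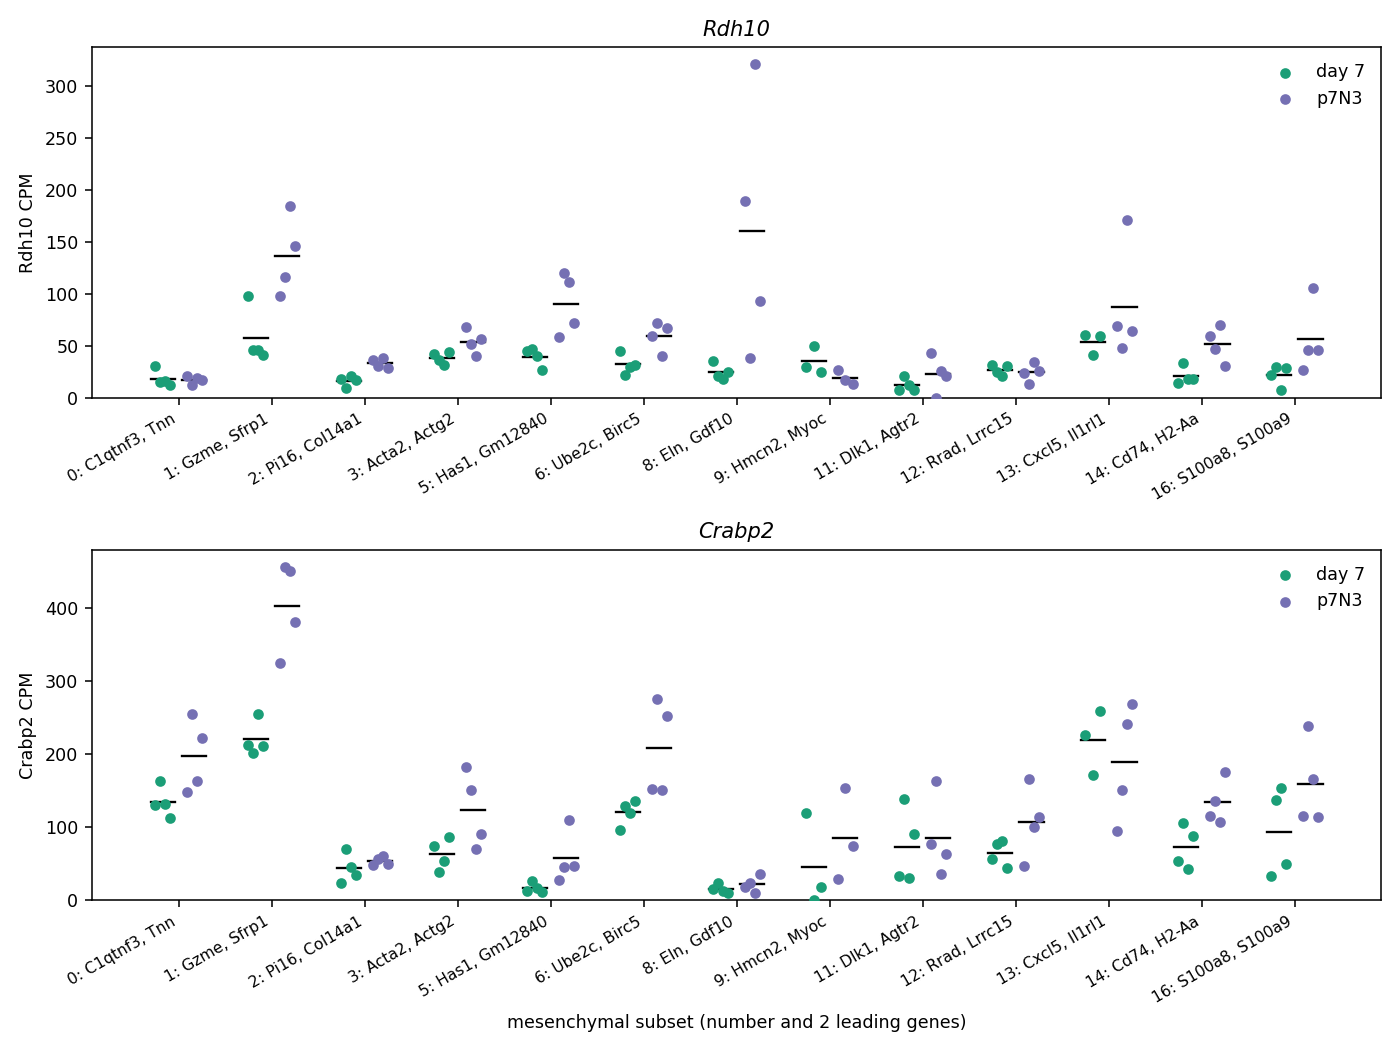
CPM of Rdh10 (top) and Crabp2 (bottom) in mesenchymal subsets with at least 3 libraries in both groups, 1 point per library, for day 7 and p7N3, with the mean as a black line. For Rdh10 the points part in the Pi16, Has1 and Eln subsets and touch in the Gzme subset (97.5 and 97.6 CPM), and for Crabp2 they part in the Gzme subset (325 CPM or more against 255 or less).

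In endothelial-like cells the genes that lower retinoic acid or its precursor moved by day. Dhrs3 in all endothelial-like cells was at 178, 216, 212 and 237 CPM at day 0, at 30.8, 36.9 and 12.8 at day 3, at 26.2, 25.1, 40.8 and 17.1 at day 7, and at 139, 203, 136 and 65.3 at day 21. Cyp26b1 was at 45.6, 155, 76.5 and 82.5 CPM at day 0, at 3.56, 6.37 and 1.16 at day 3, at 2.09, 2.62, 13.2 and 0.743 at day 7, and at 67.7, 52.3, 37.7 and 12.5 at day 21. For both genes days 3 and 7 lay below day 0 in every library.

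Endothelial clusters differed in number between days, so levels were read within clusters as well. The cluster led by Timp4, Gpihbp1 and Tcf15, markers of muscle capillaries, held 949 cells at day 0 and 40 at day 7, and none was summed at day 3. In it Dhrs3 was at 189 to 257 CPM on day 0, 261 and 286 in 2 day 7 libraries with 24 and 10 cells, and 170 to 290 on day 21. The cluster led by Plvap, Aplnr and Selp, genes of venous and activated vessels, was present at all times. There Dhrs3 was at 123, 137, 149 and 120 CPM at day 0, at 29.8, 33.9 and 12.8 at day 3, at 14.0, 22.7, 33.9 and 14.3 at day 7, and at 69.2, 70.5, 56.6 and 38.8 at day 21. Cyp26b1 in the same cluster was at 29.8, 23.6, 54.8 and 32.8 CPM at day 0, from 5 to 14 UMIs, at 1.16 to 6.52 on day 3, 0.734 to 5.55 on day 7 and 5.63 to 33.2 on day 21. For both genes days 3 and 7 did not overlap with day 0 within the Plvap cluster, as 38.9% and 33.1% of genes with at least 10 UMIs did not.

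Over the 9 genes, endothelial-like cells gave 2 above and 4 below for day 3 against day 0 (51.2% of genes with at least 10 UMIs did not overlap), 2 above and 5 below for day 7 against day 0 (44.3%), 1 above for day 21 against day 0 (22.6%) and 2 above for day 21 against day 7 (25.7%). With p7N3 against day 7 no gene of the set separated in these cells, where 5.14% of all genes did. Dhrs3 was at 30.8 ± 11.8 against 27.3 ± 9.87 CPM and Cyp26b1 at 7.98 ± 7.48 against 4.66 ± 5.74. Crabp2, at 0 to 0.90 CPM on day 0 and 8.14 to 13.8 on day 21, and Crabp1, at 0 at day 0 and at most 3.89 later, rested on few UMIs, 2 and 0 at day 0 and 74 and 7 at day 21, and the source of these transcripts was not tested.

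In monocyte/macrophage-like cells Dhrs3 was the one gene of the set with a mean over all 19 libraries above 10 CPM. By group, Crabp2 reached means of 10.8 CPM with p7N3 and 10.04 at day 21. The Dhrs3 values follow. Dhrs3 was at 189, 224, 228 and 218 CPM at day 0, at 112, 120 and 120 at day 3, at 169, 191, 232 and 131 at day 7, and at 145, 218, 169 and 134 at day 21. Day 3 lay below day 0 and below day 7 in every library, and p7N3 libraries, at 135, 162, 135 and 136, overlapped with day 7. The counts over the 9 genes were 1 above and 1 below for day 3 against day 0 (40.8% of genes with at least 10 UMIs), 2 above for day 7 against day 0 (33.3%), 1 above for day 21 against day 0 (20.7%) and 1 above for day 21 against day 7 (17.4%).

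With p7N3, Crabp2 in monocyte/macrophage-like cells was at 7.25, 12.9, 9.61 and 13.5 CPM against 4.78, 6.31, 4.68 and 4.91 at day 7, the one gene of the set that separated (4.45% of all genes). These levels were 4.91% and 4.5% of the Crabp2 level in the stromal-like cells of the same groups. That share was 17.2% at day 0, 4.24% at day 3 and 8.54% at day 21. Rdh10 in monocyte/macrophage-like cells was at a mean of 4.91 CPM with p7N3 and 4.70 at day 7, or 5.86% and 12.6% of its stromal-like level. With cells thinned to 1500 UMIs the share with a Crabp2 UMI was 1.23% with p7N3 and 0.78% at day 7, beside 0.48% and 1.29% in T/NK lymphocyte-like cells. The part of free RNA in these values was not tested.

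Tenocyte-like cells, named as a lineage and read where a library had at least 10, were few at day 0 (51 cells, 3 libraries) and changed in kind. At day 7, 79.9% lay in the subset led by C1qtnf3, Tnn and Scx, which was named activated fibroblast-like. At day 21, 79.6% lay in the Col8a1 subset, named tenocyte-like. The chondrocyte-like subset led by Col2a1 held 4.14% and 5.54% of the class on these days. Crabp2 in the whole class was at 52.5, 0 and 11.1 CPM at day 0, at 141, 166, 144 and 141 at day 7, and at 637, 394, 418 and 533 at day 21, with no overlap between the groups. Cyp26b1 was at 8.77, 6.47, 13.8 and 2.35 CPM at day 7 and at 112, 48.8, 40.4 and 69.9 at day 21. Aldh1a1 and Rarb were lower after injury in every library of the class. Aldh1a1 went from 31.5, 66.3 and 55.7 CPM (15 UMIs) to 6.47 to 13.8 on day 7. Rarb went from 21.0, 47.3 and 22.3 CPM (9 UMIs) to 2.65 to 4.39. Of the day 0 cells, 98.0% lay in the Chodl and Kera subset, which no day 7 library held in sufficient number. Within it Aldh1a1 was at 31.5, 79.9 and 61.0 CPM at day 0 and 44.3, 62.3 and 57.8 at day 21. Rarb was at 21.0, 44.4 and 12.2 CPM against 33.2, 6.92 and 9.63, from 1 to 9 UMIs per library. Both overlapped, and a fall within 1 kind of cell was not tested.

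The counts over the 9 genes in tenocyte-like cells were 2 above and 3 below for day 7 against day 0 (38.6% of genes with at least 10 UMIs), 3 above and 3 below for day 21 against day 0 (39%) and 2 above and 1 below for day 21 against day 7 (26.9%). None separated with p7N3 (5.25% of all genes). Crabp2 came closest, at 143, 293, 250 and 248 CPM with p7N3 against 141 to 166 on day 7.

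In mural-like cells, as in stromal-like cells, Rdh10 lay above day 0 in every library of days 3 and 7. It was at 12.8, 0, 8.06 and 9 CPM at day 0 (7 UMIs), at 94.6, 59.4 and 69.1 at day 3, at 28.4, 17.1, 22 and 30.9 at day 7, and at 23.6, 19, 28.1 and 33.1 at day 21. All later libraries lay above day 0, and day 3 lay above day 7. In stromal-like cells, by contrast, day 21 overlapped with day 0 and day 3 with day 7. With p7N3, Rdh10 in mural-like cells was at 45.9, 45.4, 110 and 30.8 CPM, the lowest of these being within the day 7 range. Cyp26b1, at 1 UMI in all day 0 libraries together, was at 18.7, 50.6 and 19.1 CPM at day 3, 2.94 to 17.9 on day 7 and 29.4 to 67.5 on day 21. Day 3 against day 0 gave 3 genes above and 1 below (35.8% of genes with at least 10 UMIs), day 7 against day 0 2 above (37.6%), day 21 against day 0 2 above (24.7%), day 21 against day 7 2 above (25.9%) and p7N3 against day 7 none (3.37%).

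**Figure D5:**
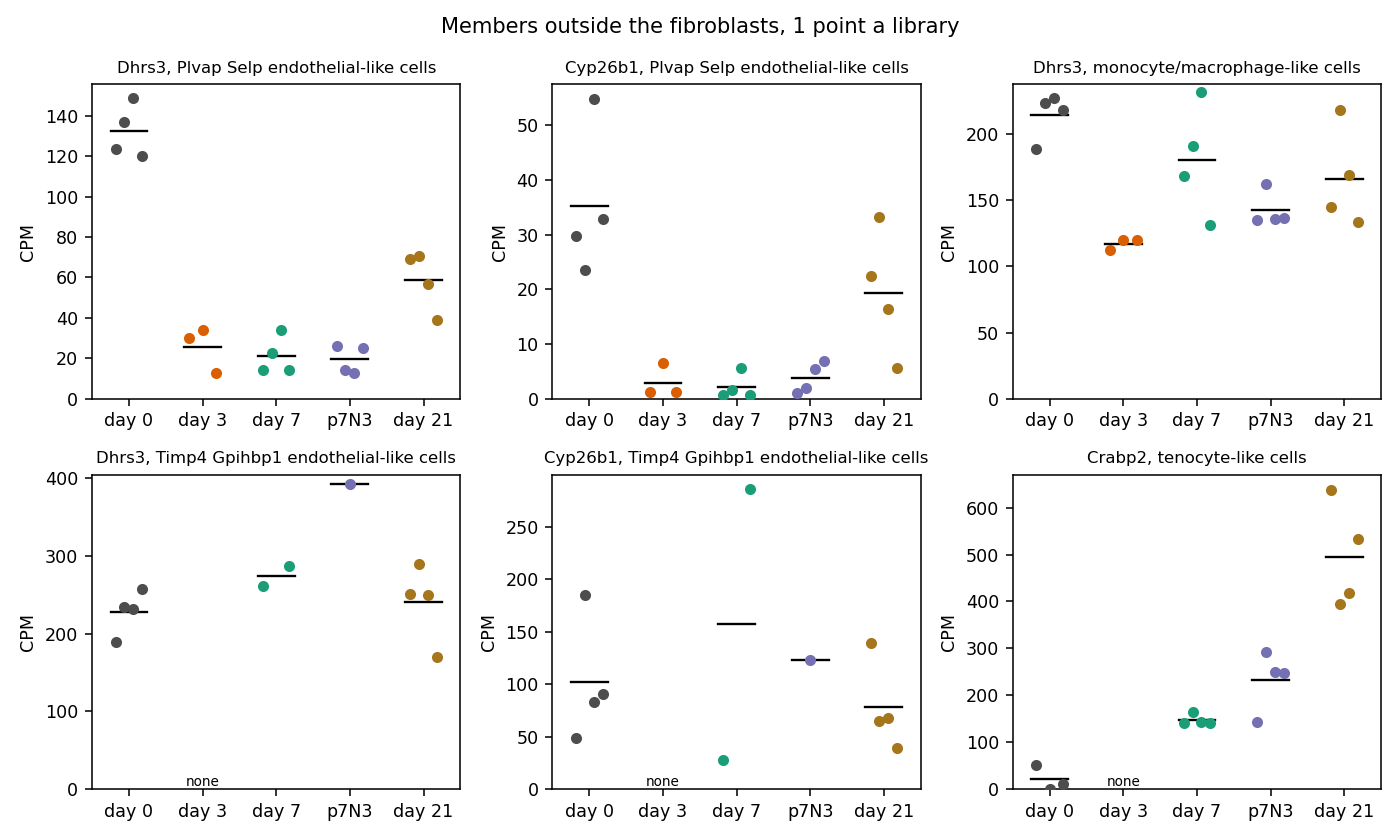
CPM per library (points, mean as a black line, axes from 0) by group for Dhrs3 and Cyp26b1 in the Plvap and Selp endothelial-like cluster (top) and the Timp4 and Gpihbp1 cluster (bottom), for Dhrs3 in monocyte/macrophage-like cells and for Crabp2 in tenocyte-like cells. In the Plvap cluster Dhrs3 is at 120 CPM or more at day 0 and at most 33.9 at days 3 and 7, and Crabp2 in tenocyte-like cells is at 394 CPM or more at day 21.

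The rest of the pathway was tested on summed counts of stromal-like cells with edgeR's quasi-likelihood test, with Benjamini-Hochberg adjustment over all genes. The 4 lists, 62 genes in all, covered retinol transport and storage, other retinoid oxidoreductases, receptors and cofactors, and known retinoic acid targets, and 7 of the genes had at most 3 UMIs in these cells. At day 3 against day 0, 7 of 36 tested genes rose and 16 fell (63.9% passed, against 66.2% of all genes), with a median log2 fold change of -0.33 beside 0.00 over all genes. The day 3 class is the one described above, with 90.9% of its cells in the Retnlg subset and its immune transcripts. The part of doublets or of immune RNA in the day 3 values of the pathway genes, here and below, was not tested. At day 7 against day 0, 8 of 42 rose and 13 fell (50% against 53.6%, median -0.26 beside 0.02). At day 21 against day 0, 5 of 36 rose and 10 fell (41.7% against 33.5%, median -0.17 beside -0.02), and at day 21 against day 7, 9 of 41 rose and 8 fell (41.5% against 34%, median 0.13 beside -0.02).

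By role, the retinol handlers split. Stra6, the retinol uptake receptor, rose from 0.324 ± 0.384 to 6.54 ± 2.15 CPM at day 7 (edgeR adjusted p = 0.000186) and fell to 1.45 ± 1.37 at day 21 against day 7 (edgeR adjusted p = 0.0134). Rbp7, a retinol-binding protein of fat and vessels, fell from 5.12 ± 0.939 to 0.138 ± 0.103 CPM at day 7 (edgeR adjusted p = 1.43e-06).

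Among the other oxidoreductases, the alcohol dehydrogenase Adh1 fell from 39.9 ± 8.45 CPM at day 0 to 3.52 ± 1.26 at day 3 and 8.70 ± 3.45 at day 7 (edgeR adjusted p = 3.80e-08 and 1.07e-05), and rose to 16.2 ± 5.14 at day 21 against day 7 (edgeR adjusted p = 0.0472). Aox1, an aldehyde oxidase, fell from 18.7 ± 2.34 CPM to 1.04 ± 0.241 at day 3, 2.56 ± 0.413 at day 7 and 7.36 ± 2.85 at day 21 (log2 fold changes -4.05, -2.86 and -1.40). Cyp1b1, a cytochrome P450 with activity on retinoids, rose from 18.4 ± 8.02 to 87.6 ± 5.43 CPM at day 3 (edgeR adjusted p = 7.08e-08), 37.8 ± 17.3 at day 7 (0.018) and 41.1 ± 8.58 at day 21 (0.000975).

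Among receptors and cofactors, 6 of 12 tested fell and 2 rose at day 3, and 5 of 13 fell and 2 rose at day 7. Together 66.7% and 53.8% passed, beside 66.2% and 53.6% of all genes. Rarg, the receptor of cartilage and its precursors, fell from 64.4 ± 8.31 CPM to 32.3 ± 0.241 at day 3 and 38.3 ± 2.94 at day 7 (edgeR adjusted p = 1.34e-05 and 0.000144). The co-repressor Nrip1 fell from 104 ± 17.9 to 32.6 ± 2.36 CPM at day 3 and the coactivator Ncoa1 from 34.0 ± 3.27 to 12.0 ± 2.21. Fabp5, a fatty acid-binding protein that can also carry retinoic acid, rose from 19.7 ± 12.1 CPM to 179 ± 8.51 at day 3 and 394 ± 136 at day 7 (log2 fold changes 3.37 ± 0.27 and 4.41 ± 0.36) and fell to 71.0 ± 35.2 at day 21 against day 7 (-2.44 ± 0.35).

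Of the known targets, 4 of 8 tested fell and 1 rose at day 3, 3 of 11 fell and 1 rose at day 7, and 3 of 9 fell and 1 rose at day 21, all against day 0. The shares that passed were 62.5%, 36.4% and 44.4%, beside 66.2%, 53.6% and 33.5% of all genes. Rarres2, which encodes chemerin and is named for its response to retinoids, fell from 922 ± 101 CPM to 222 ± 59.6 at day 3 and 160 ± 30.1 at day 7, and stood at 392 ± 82.0 at day 21. Ret, a receptor tyrosine kinase, fell from 50.3 ± 17.6 CPM to 9.83 ± 0.377 and 7.90 ± 2.05 and was at 18.4 ± 4.83 at day 21. Both rose from day 7 to day 21 (log2 fold changes 1.3 ± 0.17 and 1.21 ± 0.21, edgeR adjusted p = 0.000612 and 0.00228). Tgm2, a transglutaminase, fell from 32.6 ± 3.81 CPM to 14.8 ± 2.95 at day 21 (edgeR adjusted p = 0.000236).

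With p7N3 against day 7, no gene of the 4 lists passed the edgeR test in stromal-like cells (0 of 43, with 5 at an unadjusted p under 0.05 and 0 by DESeq2), where 0 of all 13323 genes passed as well (1545 at an unadjusted p under 0.05, 91 by DESeq2). Ret had the lowest p of these, at 11.4 ± 1.72 CPM with p7N3 and 7.90 ± 2.05 at day 7 (edgeR adjusted p = 0.319). Counts by edgeR were also 0 of 33 in endothelial-like cells (4 at an unadjusted p under 0.05, 0 by DESeq2), 0 of 33 in monocyte/macrophage-like cells (1 and 0) and 0 of 31 in tenocyte-like cells (5 and 1). Of all genes 0 passed in endothelial-like, 1 (0.00913%) in monocyte/macrophage-like and 8 (0.0819%) in tenocyte-like cells. The gene that DESeq2 called in tenocyte-like cells, named after its values were seen, was Cyp26a1, the retinoic acid hydroxylase whose promoter is printed above. It was at 5.6 to 13.6 CPM with p7N3 and 1.54 to 3.65 on day 7, from 61 and 42 UMIs (log2 fold change 1.86 ± 0.36, edgeR adjusted p = 0.12), and had 0 UMIs in stromal-like cells at day 0, below 0.496 CPM by the limit of 3 counts over the group.

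Patterns over 31 classes (lineages and subsets, log2 of mean CPM plus 1) were compared with those of 12556 genes, as a description over classes that share libraries and depth. Crabp2 was most like Col12a1, Fbn2 and Pak3 (Pearson r = 0.94, 0.93 and 0.91) and Rdh10 most like Hdlbp, Gpr180 and Angptl4 (0.92, 0.91 and 0.91). Cyp26b1 was nearest to Pcdh19, Gstm2 and Nfatc4 (0.90, 0.90 and 0.89), Aldh1a3 to Fez1, Sema3c and Slc4a4 (0.89, 0.89 and 0.89) and Aldh1a1 to Lama2, Gm13305 and Glt8d2 (0.87, 0.80 and 0.80). Aldh1a2 was nearest to Angpt4, Cyp1b1 and Bmper (0.85, 0.84 and 0.82), Cyp1b1 being the one pathway gene among these, and Crabp1 to Arxes2, 5730559C18Rik and Tnc (0.85, 0.84 and 0.84). For Dhrs3 the nearest were Gas2l1, Fam234a and Appl2 (0.86, 0.85 and 0.85), and for Rarb they were Grtp1, Fam73b and Enpp2 (0.79, 0.79 and 0.77).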

How the data were processed

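The deposited files were gene by cell matrices of UMI counts for 19 libraries, raw and not normalised, which the authors made with Cell Ranger from droplet-based 3′ reads. The labels name Cell Ranger and Seurat as tools and GRCh38 as the build, while the mouse gene symbols, identifiers and the methods point to a mouse build, and coordinates here are from GENCODE vM21 (GRCm38). The file of day 0 replicate 1 listed 737280 barcodes, an unfiltered matrix, and the other files listed 614 to 3786. The cells kept had 3019467 to 39870492 UMIs per library.

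Cells under 500 genes or over 25% mitochondrial UMIs were removed. They were clustered over all libraries in scanpy 1.11.5 (2000 variable genes without 71 retinoid genes, 30 components, 20 neighbours, Leiden resolution 0.8, leidenalg 0.10.2, 31 clusters), and clusters were named from marker lists. Mesenchymal cells were clustered again in the same way. Doublets were left in, and removing the 3.9% of cells with the highest Scrublet scores (1553 cells) was an alternative. UMIs were summed per library and class with at least 10 cells. CPM is a gene's share of the summed UMIs of the class, described by library, mean and SD. Pathway genes were tested on the summed counts with edgeR 4.0.16 (TMM, filterByExpr, glmQLFit and glmQLFTest, libraries of the 2 groups compared, no covariate) in R 4.3.3, with adjusted p under 0.05 as the threshold. On simulated counts for p7N3 against day 7 in stromal-like cells, with 200 of 13323 genes changed 2-fold, 77.5% were recovered and 7.74% of calls were false. Genes were drawn independently of one another, with no shift in the make-up of the class. These shares may therefore not hold for the real counts, and absence of change was not read from the 0 calls with p7N3. DESeq2 1.42.0, RLE factors, other filters, a replicate block, left-out libraries, a mitochondrial limit of 10% and other cell classes were alternatives. Intervals and floors cover counting error only.

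The 9 genes, the 4 pathway lists and the markers were chosen with earlier results of these data known. All 9 genes were named, and of the pathway genes up to 8 per stromal comparison, those past the threshold with a mean of at least 10 CPM in a group and the largest changes by role. One gene that this rule names is not reported here. Rbp7, Stra6, Rarg and Cyp26a1 were named in addition, after their values were seen, for their roles. Promoters came from RefSeq (GRCm38.p6).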

Additional observations from a re-analysis of the deposited data

Results flagged for a closer look

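Single libraries stood apart from the other 3 of their group, by a gap to the nearest library, as a share of the group's range, above Dixon's 95% critical value. This was so in 10 of 119 groups of 4 libraries, and chance gives about 1 in 20. In stromal-like cells these were Aldh1a3 in day 7 replicate 1 (23.8 CPM, the others 7.87 to 9.06) and Cyp26b1 in p7N3 replicate 3 (55.1 CPM, the others 23.5 to 28.3). In endothelial-like cells they were Aldh1a3 in p7N3 replicate 1 (6.92 CPM from 13 UMIs, the others 0.491 to 1.5) and Cyp26b1 in day 7 replicate 3 (13.2 CPM from 22 UMIs, the others 0.743 to 2.62).

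In monocyte/macrophage-like cells they were Crabp2 in day 7 replicate 2 (6.31 CPM, the others 4.68 to 4.91), Aldh1a1 in day 0 replicate 3 (0 CPM, the others 3.12 to 3.55, each from 1 or 2 UMIs), Rarb in day 7 replicate 3 (0.780 CPM from 4 UMIs, the others 0 to 0.117) and Dhrs3 in p7N3 replicate 2 (162 CPM, the others 135 to 136). In tenocyte-like cells they were Crabp1 in p7N3 replicate 3 (43.7 CPM, the others 3.50 to 9.11) and Crabp2 in day 7 replicate 2 (166 CPM, the others 141 to 144).

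A pair of contrasts had opposite directions in different lineages, and neither difference was tested. Aldh1a2 at day 7 was higher than at day 0 in all mural-like libraries, at a mean of 11.4 CPM against 0 UMIs, and lower in all stromal-like libraries, at a mean of 13.7 CPM. Cyp26b1 at day 3 was higher than at day 0 in all mural-like libraries, at a mean of 29.5 CPM, and lower in all endothelial-like libraries, at a mean of 3.70 CPM.

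Among cells in no named class, a cluster led by Lgals7, Krt14 and Sfrp5 had Aldh1a3 at a mean of 87.6 CPM at day 21, and 0 UMIs in the day 0 libraries with at least 10 such cells.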

How the results depend on the processing

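The counts of pathway genes called in stromal-like cells stayed within 1.5 times of those reported under most alternatives. The exception was day 21 against day 7, where 17 genes were called and leaving out 1 library at a time gave 8 to 16, with 10 without day 7 replicate 2, 8 without day 7 replicate 4, 10 without day 21 replicate 1 and 11 without day 21 replicate 3; with replicates 1 to 3 of every group, chosen after seeing the data, it was 10. In tenocyte-like cells p7N3 against day 7 gave 1 call with DESeq2 and 1 with no filter on low counts, against 0. The number of times a gene of the set did not overlap in monocyte/macrophage-like cells was 7, and 7 to 11 with a library left out, 11 without day 0 replicate 2. In stromal-like cells that number was 21. It was 26 with tenocyte-like cells added, the chondrocyte-like ones among them, and also 26 without day 7 replicate 1. Leaving out subsets led by immune genes reversed day 3 against day 0 for Rdh10 (log2 ratio -0.83) and Aldh1a3 (1.14), with 2 day 3 libraries left. In those libraries Rdh10 was at 57.4 and 29.1 CPM in the subset left out and at 10.6 and 6 in the Prg4 subset. The cause of the other moves was not tested.

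With the replicate block the calls were 20, 19, 13 and 16 for the 4 comparisons of days and 0 for each of the 4 comparisons with p7N3. Same-numbered libraries deviated together with correlations of -0.15 to 0.33, and not every library correlated best with its own number, so that the numbers were not taken as pairs. The highest lineage stayed the same for 7 of the 9 genes without the top doublet scores and for 6 of 9 at a Leiden resolution of 2; Rarb, Cyp26b1 and Crabp2 moved. Day 0 depth limits Crabp1, Crabp2 and Rarb in stromal-like cells, with at most 16 UMIs per library.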
